A study of Mus musculus with 5 samples.

Results

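The expression of 10 genes of the fibroblast growth factor (FGF) system was described across 5 mouse embryonic fibroblast (MEF) libraries. They are the secreted ligands Fgf1, Fgf2, Fgf5, Fgf7, Fgf10 and Fgf18, the intracellular homologous factor Fgf14, and the receptors Fgfr1, Fgfr2 and Fgfr3. They were chosen by gene symbol in the deposited expression tables. All 10 members were found, at 12 of the 61082 loci, among 21372 symbols that have a locus of their own. None of the 12 loci joined several genes, and Fgf2 and Fgf14 had 2 loci each.

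Secreted FGFs bind receptor tyrosine kinases of the Fgfr family together with heparan sulfate. The bound receptor signals through the adaptor Frs2 to the Ras-MAPK path, which switches on ETS factors and its own inhibitors, the Sprouty and Dusp proteins. Embryonic mesenchyme makes Fgf7 and Fgf10 for the epithelial splice form of Fgfr2, and Fgf10 drives limb and lung bud outgrowth. Fgf14 belongs to the FGF homologous factors, which stay in the cell and regulate voltage-gated sodium channels rather than Fgfr receptors.

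Total RNA was sequenced from C57BL/6 MEFs at passage 30, and the study asked what the TALE homeobox factors Meis1 and Prep1 (gene Pknox1) change in these cells. The lines M, P, MP and EV came from Prep1-hypomorphic embryos, whose allele gives reduced Prep1. They overexpressed Meis1 (M), Prep1 (P) or both (MP) or carried an empty vector (EV), and wild-type cells (WT) for Prep1 formed the fifth group. The labels' culture protocol gives E14.5 hypomorphic embryos for every sample, WT included, so the origin of the WT line is not settled by it. Each group held 1 library, with no clone or promoter of the vectors given. There is therefore no replicate check and no test between conditions, neighbouring values in an order of levels cannot be separated from culture-to-culture spread, and every difference below is between libraries. A lower level in such bulk RNA cannot separate fewer expressing cells from less RNA per cell.

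Levels are given in scaled units. The deposited values are FPKM, fragments per kilobase of transcript scaled to library size, and the upper quartile of single-gene loci was 429 FPKM in M, 11.6 in P, 9.63 in MP, 157 in EV and 12.2 in WT. Each library was therefore divided so that its upper quartile became 10. Differences are log2 ratios of levels with 1 unit added, which understates the change of low genes, and a gene was called 2-fold apart at a log2 ratio of 1 or more in size with 1 of the 2 libraries at 1 unit or more. Of the genes at 5 units or more, 96.6% to 98.9% in each library lay no higher than 20 units, so differences between well-expressed genes are narrow.

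M and EV stood apart from the other libraries. Olfactory and vomeronasal receptor loci (Olfr and Vmn), which fibroblasts should lack, were above 0 at 70.4% of 1447 loci in M, 11.4% in P, 13.1% in MP, 99.8% in EV and 17.6% in WT. Meis1 followed the labels in direction, with 16.8 units in M, 8.86 in P, 15.4 in MP, 8.32 in EV and 12.4 in WT. Its log2 ratios of 0.93 for M over EV and 0.74 for MP over P were not 2-fold apart. WT, not labelled with added Meis1, stood above EV and P. Pknox1 did not follow the labels, at 0.554 units in the library labelled P and 0.569 in the library labelled MP, against 3.25 in M, 2.16 in EV and 11 in WT. Directions drawn from P and MP carry that limit. All 10 fibroblast markers, among them Col1a1 and Pdgfra, were at 1 unit or more in every library. The summed level of 6 epithelial markers was 0.393 to 3.33 units and that of 4 endothelial markers 0.663 to 1.74. That of the 4 of 5 macrophage markers with loci of their own was 1.95 to 3.98, most of it Csf1r. Emr1 was listed at 0 in P, MP and WT and Lyz2 at 0 in MP. Ptprc was above 0 in every library, and Ptprc (0.362 units) and Lyz2 (0.415) were highest in WT. The sum of 4 neuronal markers was 6.09 to 12.5, most of it Tubb3. Their part in the results below was not tested.

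**Figure D1:**
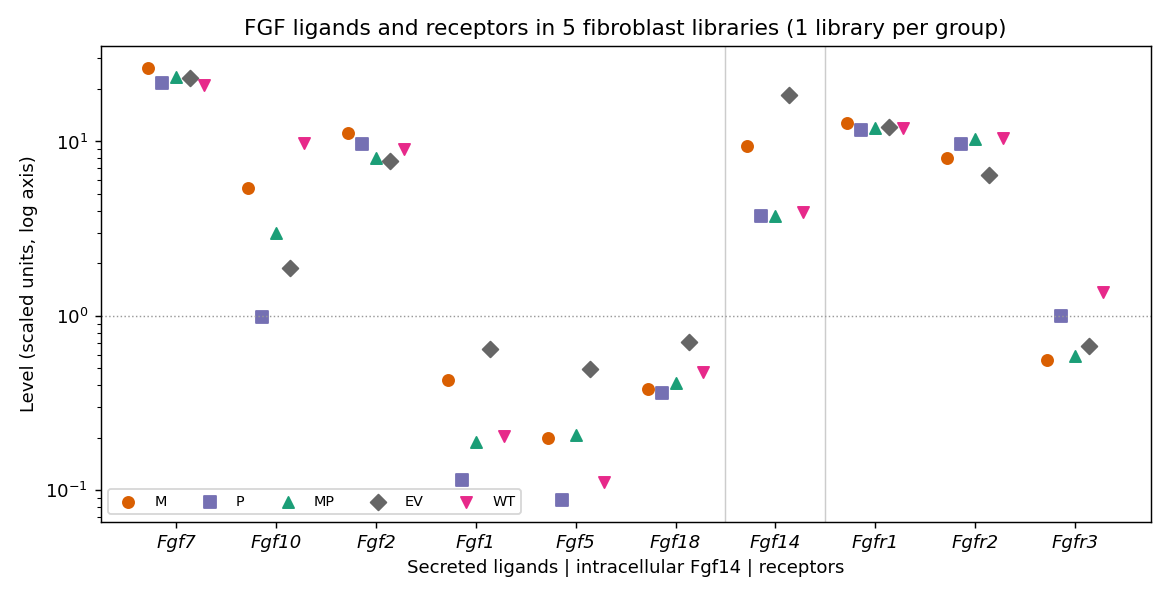
Level of each FGF member in scaled units (log axis) in the M, P, MP, EV and WT libraries, 1 point per library, with the dotted line at 1 unit. As scaled here Fgfr1 has the narrowest span in log2 with 1 unit added, and Fgf10 and Fgf14 have the widest. Fgf1, Fgf5 and Fgf18 stayed under 1 unit.

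Among the ligands, Fgf7 (keratinocyte growth factor) was the most abundant member in every library. It stood at 26.5 units in M, 21.6 in P, 23.4 in MP, 23.3 in EV and 21.0 in WT. Its level exceeded that of at least 99.4% of all symbols in each library, and it made up 51.7% to 67.0% of the summed level of the 6 secreted ligands. Its span over the 5 libraries was 0.32 in log2, 0.90 with the library median as the scale and 0.20 with quantile normalisation.

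Fgf10, the other mesenchymal ligand of epithelial Fgfr2, varied most of the 10 members as scaled here. It stood at 5.44 units in M, 0.984 in P, 2.99 in MP, 1.89 in EV and 9.79 in WT. WT was the highest library and P the lowest, a span of 2.44 in log2 that was wider than that of 97.9% of 9443 symbols reaching 5 units. Both libraries labelled with added Meis1 were above their counterparts: M over EV gave a log2 ratio of 1.15 and MP over P gave 1.01. The ratio was -0.54 for P over EV, 0.46 for MP over EV and -0.69 for MP over M, none of them 2-fold apart. The WT over EV ratio was 1.90, so Fgf10 was lower in EV than in WT. The MP over P call lay just past the threshold. With P in place of EV, chosen after seeing the data, the EV library is left out and the Fgf10 ratio was 1.70 in M and 2.44 in WT. P was lower in Fgf10 than EV, so these ratios had to be larger than those over EV.

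Dividing a library by its own upper quartile or median leaves the ratios between its members unchanged. Quantile normalisation is not such a division, and the ratios were not calculated under it. The part of the Olfr and Vmn signal in these ratios was not tested. Fgf10 was 0.205 times Fgf7 in M, 0.0455 in P, 0.128 in MP, 0.0814 in EV and 0.466 in WT. The order of the libraries was that of the Fgf10 level itself. Fgf10 made up 12.3% of the summed secreted ligands in M, 3.0% in P, 8.49% in MP, 5.45% in EV and 24.1% in WT.

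**Figure D2:**
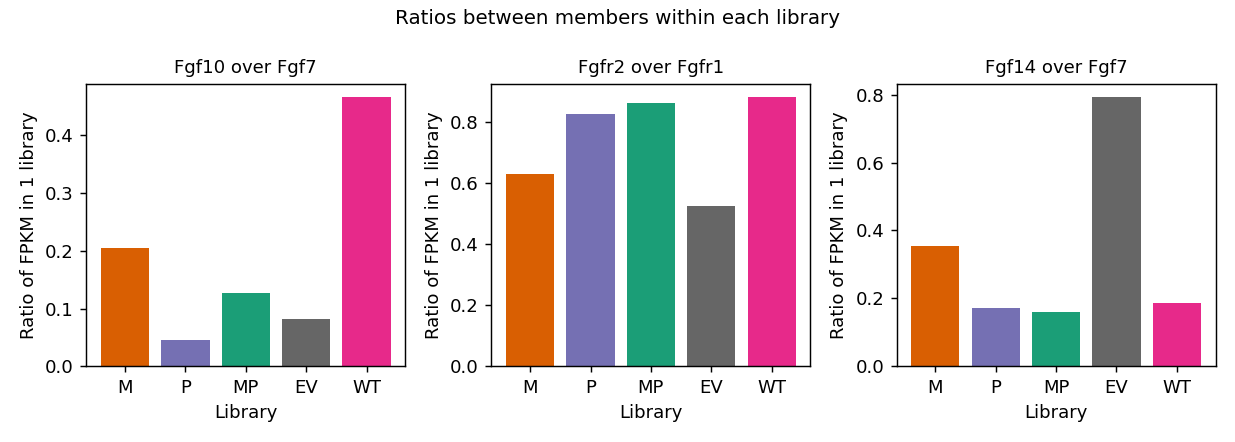
Ratio of deposited FPKM between pairs of members within each library, 1 bar per library (M, P, MP, EV and WT), axes from 0. Fgf10 over Fgf7 was highest in WT (0.466) and lowest in P (0.0455), Fgfr2 over Fgfr1 was lowest in EV (0.525), and Fgf14 over Fgf7 was highest in EV (0.793).

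The 250 bases before the annotated start are shown for Fgf10 and Fgf7, ligands of the same receptor form with unlike spreads, and for Fgf14, which differed between libraries in another pattern. They are RefSeq sequences of build GRCm38.p6, read 5′ to 3′ on the gene's strand: Fgf10 at chr13:118714449-118714698 (plus strand), Fgf7 at chr2:126034408-126034657 (plus strand) and Fgf14 at chr14:124192547-124192796 (minus strand). Capitals mark matches on either strand to the GC box GGGCGG or the CCAAT box.
Fgf10: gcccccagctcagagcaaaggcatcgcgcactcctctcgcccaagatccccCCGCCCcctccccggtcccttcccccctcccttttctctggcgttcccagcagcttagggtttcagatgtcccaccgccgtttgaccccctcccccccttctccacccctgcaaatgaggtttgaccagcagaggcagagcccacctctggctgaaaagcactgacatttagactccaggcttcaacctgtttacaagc
Fgf7: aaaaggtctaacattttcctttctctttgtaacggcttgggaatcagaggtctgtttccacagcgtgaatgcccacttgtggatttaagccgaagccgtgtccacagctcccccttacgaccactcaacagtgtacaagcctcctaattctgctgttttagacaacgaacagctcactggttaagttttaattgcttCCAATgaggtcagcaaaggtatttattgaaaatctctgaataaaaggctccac
Fgf14: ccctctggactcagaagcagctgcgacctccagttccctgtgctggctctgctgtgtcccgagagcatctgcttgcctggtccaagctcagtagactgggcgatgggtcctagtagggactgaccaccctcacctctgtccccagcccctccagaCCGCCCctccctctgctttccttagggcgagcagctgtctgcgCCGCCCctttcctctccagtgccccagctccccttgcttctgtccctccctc

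The windows differed in base composition. Fgf10 had 61.2% GC and 8 CpG, Fgf14 64.0% GC and 7 CpG, and Fgf7 43.6% GC and 6 CpG, against medians of 52.4% and 6 over 32536 distinct windows of that length. The study's title concerns Meis1, Prep1 and AP-1 sites, so the Meis and Prep core TGACAG, the longer TGATTGAC and the AP-1 motif TGANTCA were searched on both strands. The 9 windows read covered 8 members, without Fgf1 and Fgfr1. None of these windows held any of those motifs, against 15.8%, 0.695% and 6.73% of all windows. TATAAA was also in none of the 9, against 12.3% of all windows. GGGCGG was in 7 of the 9 and CCAAT in 2, against 33.0% and 33.8% of all windows. TGACAG and TGATTGAC can overlap each other. These counts describe letters in 1 window per start and say nothing of binding elsewhere.

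Fgf2 (basic FGF, a mitogen of cultured fibroblasts) stood at 11.1 units in M, 9.65 in P, 8.0 in MP, 7.71 in EV and 9.03 in WT. M was highest and EV lowest (WT was lowest with the library median as the scale), and no comparison was 2-fold apart. The largest Fgf2 ratios were 0.48 for M over EV and -0.43 for MP over M. Its span of 0.48 in log2 was wider than that of 63.3% of symbols reaching 5 units.

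Fgf1 (acidic FGF), Fgf5 (which ends hair growth) and Fgf18 (which acts on cartilage and bone) were below 1 unit in all 5 libraries and passed no filter. Fgf1 stood at 0.428 units in M, 0.115 in P, 0.188 in MP, 0.647 in EV and 0.204 in WT. Fgf5 ranged between 0.0880 in P and 0.498 in EV, and Fgf18 between 0.363 in P and 0.712 in EV. Each of the 3 was highest in EV, the library with most Olfr and Vmn loci above 0, but with quantile normalisation Fgf5 and Fgf18 were highest in MP. The 99th percentile of those loci was 1.41 units in M and 0.909 in EV, above all 3 ligands there. It was lower in the other libraries (P 0.381 units, MP 0.331, WT 0.414), where of the 3 ligands Fgf18 alone exceeded it, in MP (0.413) and WT (0.475).

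**Figure D3:**
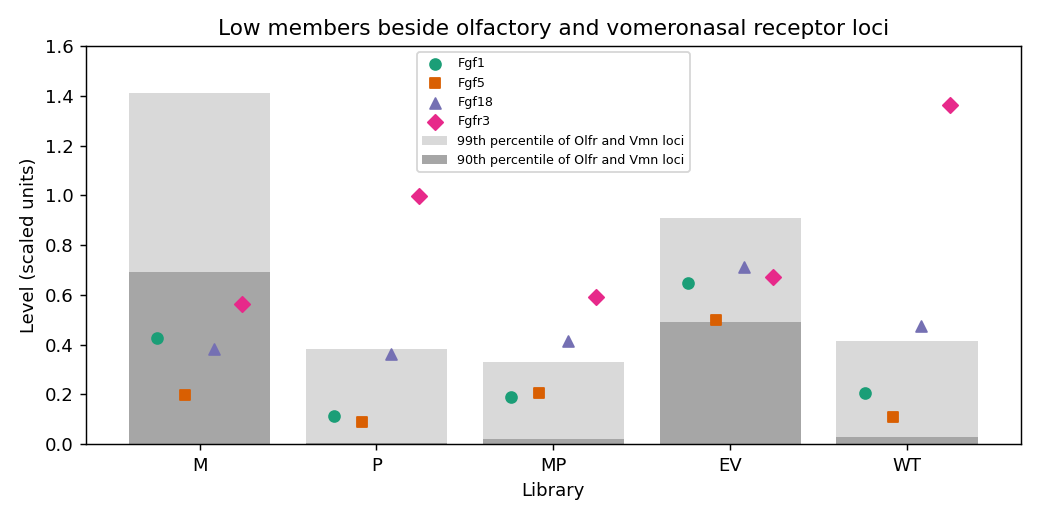
Levels of Fgf1, Fgf5, Fgf18 and Fgfr3 (points, scaled units) over the 90th and 99th percentiles of 1447 Olfr and Vmn loci (dark and light bars) in M, P, MP, EV and WT. In M all 4 genes lie under the 90th percentile of 0.693 units, while Fgfr3 in P (0.998), MP (0.591) and WT (1.36) lies above the 99th percentile.

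Fgf14 had another pattern. Its main locus stood at 9.42 units in M, 3.73 in P, 3.72 in MP, 18.5 in EV and 3.92 in WT. EV was highest and M next, while P, MP and WT lay close together. The log2 ratio was -0.90 for M over EV, -2.04 for P over EV, -2.04 for MP over EV, -1.14 for MP over M and -0.00 for MP over P. The MP over M call ended with the library median as the scale (-0.84) and with quantile normalisation (-0.99). The WT over EV ratio was -1.98, so Fgf14 was higher in EV than in WT. The libraries with high Fgf14 were those with high deposited levels and Olfr and Vmn signal (99.8% of loci above 0 in EV and 70.4% in M). The part of this in the Fgf14 values was not tested. With P in place of EV, the Fgf14 ratio was 1.14 in M, -0.00 in MP and 0.058 in WT.

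Among the receptors, Fgfr1, the main FGF receptor of mesenchymal cells, had the narrowest span of the 10 members as scaled here. It stood at 12.8 units in M, 11.7 in P, 12.0 in MP, 12.2 in EV and 11.9 in WT. Its span of 0.12 in log2 was wider than that of only 2.88% of symbols reaching 5 units, but the span was 0.74 with the library median as the scale. Fgfr1 supplied 50.1% to 63.3% of the summed receptor level.

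Fgfr2, whose splice forms bind Fgf7 and Fgf10 or other ligands, stood at 8.04 units in M, 9.66 in P, 10.3 in MP, 6.38 in EV and 10.5 in WT. EV and M were the low libraries (EV and WT with the library median as the scale). The log2 ratio was 0.29 for M over EV, 0.53 for P over EV, 0.62 for MP over EV and 0.63 for WT over EV, none of them 2-fold apart. Within libraries Fgfr2 was 0.628 times Fgfr1 in M, 0.826 in P, 0.861 in MP, 0.525 in EV and 0.881 in WT. The tables give 1 value per locus, so splice forms were not resolved.

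Fgfr3, a receptor that restrains growth plate cartilage, stood at 0.562 units in M, 0.998 in P, 0.591 in MP, 0.673 in EV and 1.36 in WT. It reached 1 unit only in WT, with a WT over EV ratio of 0.50. Fgfr3 supplied 2.57% to 5.75% of the summed receptor level.

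Read as counts, 6 of the 10 members passed the level filter in M over EV, and 1 (Fgf10) was at least 2-fold higher, against 0.296% of 11144 genes, and 0 were lower, against 0.628%. In P over EV, 0 of 6 were higher (0.654% of all genes) and 1 (Fgf14) lower (1.85%). In MP over EV, 0 of 6 were higher (0.208%) and 1 (Fgf14) lower (2.05%). In MP over M, 0 of 6 were higher (0.23%) and 1 (Fgf14) lower (1.28%), and in MP over P, 1 of 6 (Fgf10) was higher (0.251%) and 0 lower (0.761%). The WT over EV ratio of 7 members included 1 at least 2-fold above EV (Fgf10, against 6.31% of all genes) and 1 below (Fgf14, against 3.2%). M, P, MP and WT were all set against the same EV library. Over all genes the split of calls depended on the scaling. Of calls in MP over P, 24.8% were higher as scaled here and 72.4% with the library median in place of the upper quartile, and in WT over EV these shares were 66.4% and 43.2%. They were 9.24% and 40.9% in MP over EV, and 15.2% and 32.8% in MP over M. With quantile normalisation the share was 49.0% in M over EV, against 32.0% as scaled here.

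The members' median log2 ratio was 0.24 in M over EV (median of all kept genes -0.01), -0.08 in P over EV (-0.05), 0.03 in MP over EV (-0.04), -0.30 in MP over M (-0.01), 0.06 in MP over P (0.04) and 0.20 in WT over EV (-0.07). In M, MP and WT over EV these medians hide the opposite positions of Fgf10 and Fgf14. In P over EV and MP over M both genes had ratios below 0.

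**Figure D4:**
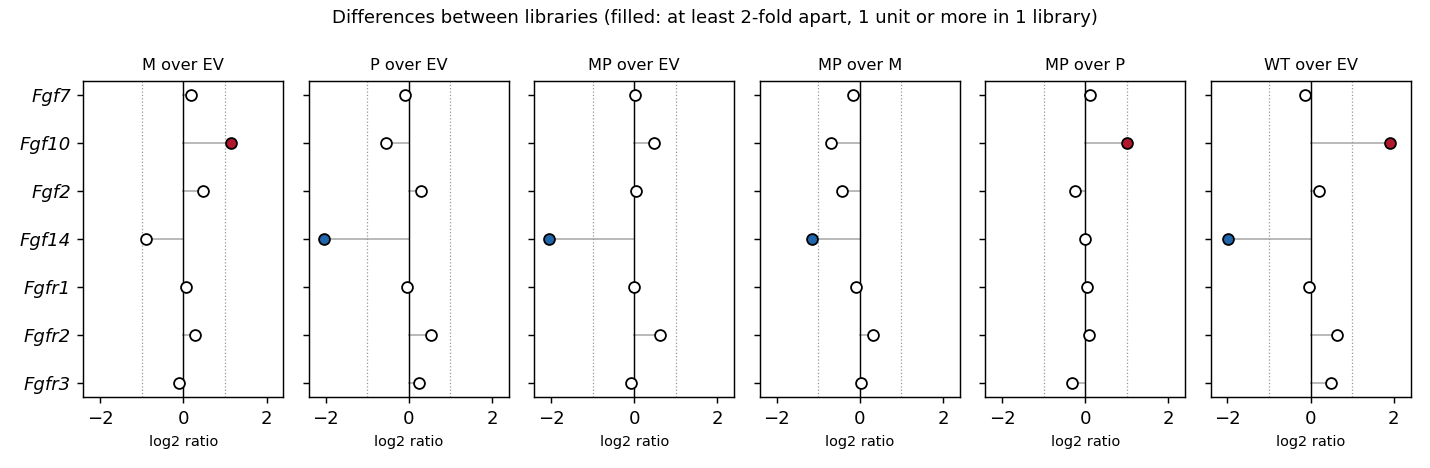
Log2 ratio (pseudocount 1 unit) of the 7 members that reached 1 unit in any library, for each of 6 comparisons, 1 library against 1. Filled points are at least 2-fold apart: Fgf10 in M over EV (1.15), MP over P (1.01) and WT over EV (1.90), and Fgf14 in P over EV (-2.04), MP over EV (-2.04), MP over M (-1.14) and WT over EV (-1.98).

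WT was also set against the 4 hypomorphic lines together. Fgf10 and Fgfr3 were lower in all 4 hypomorphic lines than in WT, also with the library median as the scale and with quantile normalisation. Fgfr3 was under 1 unit in all 4. In M (0.562 units) and EV (0.673) it lay under the 99th percentile of Olfr and Vmn loci (1.41 and 0.909). Fgfr2 was lower in all 4 as scaled here, but with the median WT (0.32 over EV in log2) lay below MP (1.02), P (0.57) and M (0.34). Fgf7 was higher in all 4 as scaled here, but with quantile normalisation WT lay above P, MP and EV. For Fgf10 the highest hypomorphic line was M (5.44 units) against 9.79 in WT, a WT over M log2 ratio of 0.75. For Fgfr2 the closest line was MP (10.3 units against 10.5 in WT). None of the 7 members was 2-fold beyond the range of the hypomorphic lines, while WT lay 2-fold above all 4 at 4.29% of 11867 genes and below at 0.961%. The range over P and MP alone was chosen after seeing the data. It leaves out the libraries that stand apart, among them M, the highest hypomorphic line for Fgf10. Against that range, 1 member was 2-fold beyond (Fgf10, with WT 1.43 above MP). WT lay 2-fold above both at 5.76% of 11432 genes and below at 1.27%.

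The authors' deposited tables gave their own test of 1 library against 1 on unscaled values. In the authors' deposited table for M, 4 of the 12 member loci had status OK, 4 had FAIL and 4 were not tested, and 1 locus was called higher, Fgf10, at 233 FPKM in M and 29.8 in EV (q = 0.000129), against 18% of 5565 single-gene loci with status OK. In the authors' deposited tables for P, MP and WT, 6 of 6, 5 of 5 and 7 of 7 member loci with status OK were called lower than EV, against 98.7%, 99.2% and 96.5% of all such loci. Fgf10 is among them, at 33.4 FPKM in EV and 11.9 in WT in the authors' deposited table, whereas its scaled level was lower in EV than in WT. Fgfr1 and Fgfr2 had status FAIL in all 4 of the authors' deposited tables, and Fgf7 in the one for M.

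The rest of the family was low, as were the members Fgf1, Fgf5 and Fgf18. Of the 15 other ligands and receptors with loci of their own, Fgfr4 included, none reached 1 unit in any library. The highest values were Fgf22 in M (0.619 units), P (0.416), MP (0.513) and EV (0.893), and Fgf21 in WT (0.335). Fgf22 exceeded Fgf1 and Fgf5 in every library. In P and MP it was above the 99th percentile of Olfr and Vmn loci (0.381 and 0.331 units), and in M and EV below it (1.41 and 0.909). Of the 15 genes, 1 was listed at 0 in M, 7 in P, 9 in MP, 0 in EV and 4 in WT. Olfr and Vmn loci above 0 were 70.4% in M, 11.4% in P, 13.1% in MP, 99.8% in EV and 17.6% in WT. The counts are therefore not read as differences of the family. The endocrine coreceptors Kl and Klb were at 0.476 units or less.

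Receptor cofactors and heparan sulfate genes were measured at 26 of 26 members. Of those kept, none was 2-fold apart in M (23 kept), P (23) or MP (23) over EV, with medians of -0.05, -0.24 and -0.12 in log2, or in MP over P (21 kept, median 0.16). In MP over M 1 of 22 was lower (1.28% of all genes), the glypican Gpc3, at 0.814 units in MP and 3.01 in M. That call ended with the library median as the scale (-0.97) and with quantile normalisation (-0.94). In WT over EV 1 of 24 had a ratio above 1 (median -0.33), a share no larger than the 6.31% of all genes. It was Sulf2, an extracellular sulfatase that trims heparan sulfate, at 0.297 units in EV and 11.7 in WT. Of 21 adaptor and Ras-MAPK, PI3K and PLC genes, 18 had loci of their own and were kept, and none was 2-fold apart in any of the 6 comparisons. Their medians lay between -0.21 in WT over EV and 0.11 in MP over P, and Frs2 itself stood at 11.4 units in M, 9.01 in P, 10.7 in MP, 9.76 in EV and 7.80 in WT.

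Feedback inhibitors and target genes of the pathway report on signalling downstream of the receptors. Of 20 kept, 1 was higher and 0 lower in M over EV (0.296% and 0.628% of all genes), namely Etv1, an ETS transcription factor, at 4.11 units in M and 1.47 in EV. None was 2-fold apart in P or MP over EV, or in MP over M or P. In WT over EV 3 of 20 had a ratio above 1 (6.31% of all genes): Etv1, Dusp4 and Spry1. With the library median as the scale Etv1 kept its call (1.04), while Dusp4 (0.79) and Spry1 (0.70) lost theirs. That scale added Etv1 (1.15) and Dusp4 (1.05) in MP over EV. With quantile normalisation Etv1 (1.08), Dusp4 (1.19) and Spry1 (1.0003) kept their WT over EV calls. The list's median was -0.12 in M over EV, -0.06 in P, -0.04 in MP and -0.02 in WT over EV, 0.01 in MP over M and 0.15 in MP over P, against -0.01, -0.05, -0.04, -0.07, -0.01 and 0.04 for all kept genes in the same comparisons.

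Spry1, a Sprouty inhibitor of receptor tyrosine kinase signalling, stood at 8.05 units in M, 3.87 in P, 6.34 in MP, 5.05 in EV and 11.2 in WT. This was the order of Fgf10, WT above M, MP, EV and P, which 1 of 21 genes of the list and 1.12% of 11867 symbols shared. With the library median as the scale Spry1 stood higher in MP than in M, and that order was no longer shared. Dusp4, a MAPK phosphatase, stood at 10.4 units in M, 8.21 in P, 10.1 in MP, 6.08 in EV and 14.3 in WT. Etv1 stood at 2.14 units in P, 3.36 in MP and 5.21 in WT. Other targets that are often read as measures of FGF signalling were not 2-fold apart in any comparison. Dusp6, another MAPK phosphatase, stood at 13.8 units in M, 11.9 in P, 15.5 in MP, 15.8 in EV and 11.6 in WT, and the log2 ratios of Etv4, Etv5 and Spry2 lay between -0.27 and 0.34 over the 6 comparisons as scaled here.

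**Figure D5:**
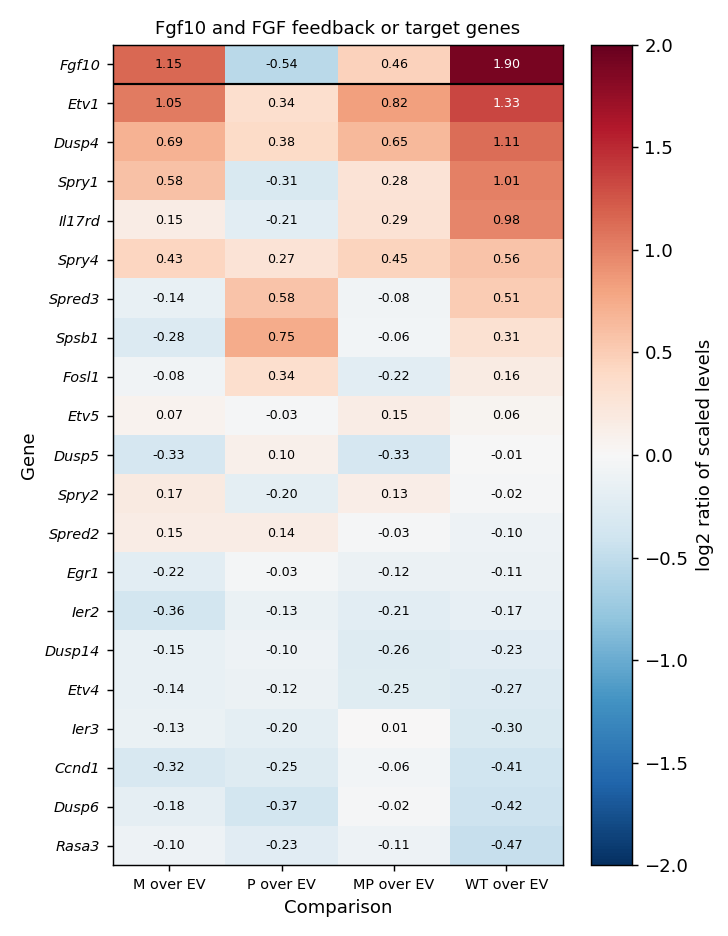
Log2 ratio of scaled levels over the same EV library for Fgf10 (top row) and the 20 feedback and target genes that reached 1 unit, in M, P, MP and WT, with the value in each cell and red for higher than EV. Etv1, Dusp4 and Spry1 have WT over EV ratios of 1.33, 1.11 and 1.01. Il17rd lies just short of the threshold there (0.98), and the remaining genes lie between -0.47 and 0.56 in WT over EV.

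By pattern over the 5 libraries, the symbols most like Fgf10 among 9039 were Calcrl, Fibin and Adra2a, with root mean square differences of 0.16, 0.19 and 0.20 in centred log2 level. Calcrl stood at 6.10 units in M, 1.65 in P, 2.87 in MP, 2.66 in EV and 11.9 in WT. Those most like Fgf14 were Cd84 (0.10), Tspan18 (0.20) and H2-Q4 (0.21). Tspan18 stood at 10.0 units in M, 4.93 in P, 3.93 in MP, 16.2 in EV and 5.43 in WT, so it was high in the same 2 libraries as Fgf14.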

How the data were processed

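RNA-seq values of 5 MEF libraries, grouped by the sample labels with 1 library per group, were read from 4 tables that each set EV against 1 other library. The authors deposited FPKM per locus, with their own q-value. TopHat, Cufflinks, Cuffdiff and the mouse build mm9 are listed in the submitters' processing notes. Versions, annotation, strand and library normalisation are not given in the sources used here. FPKM holds no counts, so depth is unknown and no counting interval can be given.

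EV was taken from the M table. Its values in the other tables differed by a factor of 0.972 (MP), 1.10 (P) or 1.12 (WT), within 1% at 99.1% of single-gene loci or more. Libraries were scaled to 10 at their upper quartile over single-gene loci at 1 FPKM or more in any library. Symbols with several loci used the locus with the highest mean log2 level. The calculations (Python 3.11.15, pandas 2.3.3, numpy 2.4.6) were tested on simulated data.

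The members and lists were chosen with earlier results of these data known. Named were all members, list genes 2-fold apart, Meis1 and Pknox1, and the 3 symbols closest in pattern (at 5 units or more, unnamed and small RNA genes left out) to each member called in any comparison. Fgf21, Fgf22, Kl, Klb, Frs2, Fgfbp1, Fgfbp3, Flrt3, Dusp6, Etv4, Etv5, Spry2, Il17rd and the marker examples were chosen after their values were seen. Promoter windows came from a GRCm38.p6 table, another build than that of the expression tables, which hold no coordinates. Alternatives were unscaled values, the median, quantile normalisation, a pseudocount of 0.1, other filters, summed loci and another comparison library.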

Additional observations from a re-analysis of the deposited data

Results flagged for a closer look

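Fgf2 stood on opposite sides of its counterpart where Meis1 was added to different lines. Its log2 ratio was 0.48 in M over EV and -0.24 in MP over P, a difference of 0.72. Set out by Prep1 as labelled, the same 4 libraries gave 0.29 in P over EV and -0.43 in MP over M. The difference is then 0.72 by arithmetic, so it is the same observation and not a separate one. The levels were 11.1 units (M), 9.65 (P), 8.0 (MP) and 7.71 (EV). Each value is 1 library and none of the ratios was 2-fold, so the difference was not tested. With the library median as the scale the MP over P ratio turned to 0.12, on the same side as M over EV (0.53).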

How the results depend on the processing

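No replicate could be left out, and no paired analysis was possible because each group held 1 library. Depth is unknown, so what it limits cannot be given. On values as deposited the whole library shifts (median log2 ratio 1.26 for M over EV, -3.23 for P over EV, -3.48 for MP over EV and -3.06 for WT over EV, -5.10 in MP over M and -0.20 in MP over P). The members 2-fold apart were then 6 for M over EV, 10 for P over EV, 10 for MP over EV and 10 for WT over EV, 10 in MP over M and 0 in MP over P, and the pathway list genes 67, 79, 79, 79, 75 and 1. The scaled values gave 1, 1, 1, 2, 1 and 1 members and 1, 0, 0, 4, 1 and 0 list genes. The WT over EV ratio of Fgf10 turned to -1.26 there.

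With the library median as the scale, which moved the median of all genes to 0.36 in MP over EV, -0.37 in WT over EV, 0.33 in MP over M and 0.39 in MP over P, the members were 2 in MP over EV (Fgfr2 at 1.02 added) and 0 in MP over M, and the list genes 2 in MP over EV, 2 in WT over EV and 0 in MP over M. Quantile normalisation, chosen after seeing the data, gave 0 members (Fgf14 at -0.99) and 0 list genes in MP over M. A pseudocount of 0.1 gave 3, 2, 2 and 8 list genes in M, P, MP and WT over EV. At 5 units or more there were 0 list genes in M over EV and in MP over M, and 0 members in MP over P. With P in place of EV, also chosen after seeing the data, 2 members and 2 list genes were apart in M and 1 member in WT, with Fgf14 at 1.14 in M and turned to 0.058 in WT. Against P and MP alone, a range chosen after seeing the data, 1 member lay 2-fold beyond it in WT, against 0 for all 4 lines. Summing the loci of a symbol, or dropping the filter on low values, changed the call of none of the 60 member ratios, but with summed loci the small Fgf2 ratio in MP over EV (0.047) turned to -0.067. Fgf10 in M over EV ranged between 1.15 and 1.47 under every scaled alternative over EV, and in WT over EV between 1.58 and 2.31.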

Other observations

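Both members with a locus to spare had less signal there. The lower Fgf2 locus stood at 1.70 units in M, 2.0 in P, 1.37 in MP, 2.15 in EV and 1.08 in WT, so its order was not that of the main locus. The lower Fgf14 locus stood at 0.130 units in M, 0.0519 in P, 0.0297 in MP, 0.251 in EV and 0.194 in WT. The tables do not say which transcripts these loci hold.

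Secreted FGF binding proteins differed from each other. Fgfbp1 stood at 0.270 units in M, 0.208 in P, 0.124 in MP, 1.15 in EV and 0.130 in WT, and Fgfbp3 at 2.35, 1.84, 2.69, 2.09 and 3.53 units in the same libraries. Neither was 2-fold apart in any comparison as scaled here with 1 unit added. Fgfbp1 in EV was near the 99th percentile of Olfr and Vmn loci there (0.909 units), and in M it was under the 90th (0.693). The membrane protein Flrt3, which binds Fgfr1, stood at 9.73 units in M, 8.37 in P, 10.5 in MP, 7.19 in EV and 4.64 in WT, and was the lowest in WT.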
